A study of Mus musculus with 31 samples.

Results

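Homeostatic microglia are the resident macrophages of the healthy brain, and 9 genes by which they are commonly recognised in mice are described here, namely *Tmem119*, *Cx3cr1*, *Csf1r*, *Siglech*, *Gpr34*, *Selplg*, *Olfml3*, *Fcrls* and *Sparc*. They were chosen by gene name, and all 9 were found among the 55401 genes of the count tables. Their RNA was measured in 31 libraries of mice of 13 months of age on the C57Bl/6J background. CD11b+ microglia were isolated with magnetic beads from the whole brain, whereas cortex libraries were made from homogenates of the temporo-occipital cortex. Female mice were A-/Pwt/wt (without the APP/PS1 transgene and with wild-type *Plcg2*), A+/Pwt/wt (APP/PS1 transgene, wild-type *Plcg2*) or A+/Pki/ki (APP/PS1 transgene, homozygous for the PLCγ2-P522R knock-in). The transgene carries mouse/human APP with the Swedish mutations and human PS1 lacking exon 9 under the mouse prion protein promoter, and the knock-in was made by CRISPR/Cas9 editing and is not restricted to microglia. CD11b+ microglia came from 7 A-/Pwt/wt, 4 A+/Pwt/wt and 4 A+/Pki/ki females and from 3 WT (A-, wild-type *Plcg2*) and 4 KI males (A-, homozygous for P522R). Cortex came from 1 A-/Pwt/wt, 4 A+/Pwt/wt and 4 A+/Pki/ki females. Each library is labelled with 1 mouse, and the labels do not mention pooling.

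Microglia depend on signals from their surroundings to hold their resting state, and the genes above encode parts of that exchange. CSF1R is a receptor tyrosine kinase whose ligands CSF1 and IL-34 keep microglia alive, CX3CR1 binds the neuronal chemokine fractalkine (*Cx3cl1*), and GPR34 is a G protein-coupled receptor for lysophosphatidylserine. Siglec-H is a surface receptor of the Siglec family that signals through the adaptor DAP12 (*Tyrobp*), and *Selplg* encodes PSGL-1, a ligand of selectins. FCRLS is an Fc receptor-like surface protein and TMEM119 a transmembrane protein used as a marker of microglia. SPARC and OLFML3 are secreted glycoproteins, and *Sparc* is also transcribed by vascular cells and other glia. In mouse models with amyloid plaques, microglia near plaques lower several of these genes and raise those of the disease-associated microglia (DAM) program, such as *Apoe*, *Trem2* and *Cst7*.

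All positions refer to GRCm38. Of the receptors of soluble ligands, *Cx3cr1* (ENSMUSG00000052336.7) lies at chr9:119901616-120069879, minus strand, and *Gpr34* (ENSMUSG00000040229.11) at chrX:13632089-13640858, plus strand. Of the surface proteins, *Siglech* (ENSMUSG00000051504.18) lies at chr7:55768178-55778925, plus strand, and *Fcrls* (ENSMUSG00000015852.13) at chr3:87250758-87263738, minus strand. *Tmem119* (ENSMUSG00000054675.5, chr5:113793729-113800516, minus strand) and *Selplg* (ENSMUSG00000048163.13, chr5:113818536-113832644, minus strand) are neighbours that are transcribed in the same direction. Of the secreted proteins, *Olfml3* (ENSMUSG00000027848.12) lies at chr3:103722222-103738001, minus strand, and *Sparc* (ENSMUSG00000018593.13) at chr11:55394500-55423183, minus strand. Exons of *Csf1r* overlap those of *Hmgxb3* and exons of *Cx3cr1* those of *Gm33858* on the other strand. Reads were counted irrespective of strand, so that reads of such pairs cannot be told apart.

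Promoter sequences of RefSeq on GRCm38.p6 were used for 5 of the 9 genes. *Tmem119*, *Gpr34* and *Selplg* had no entry, and *Csf1r* was left out, a choice not applied to the mouse promoters given for comparison. The 250 bases before the annotated start were searched on both strands for letters typical of factors of the microglial lineage. Searched were GAGGAAG for PU.1, TGTGGT for RUNX, TGANTCA for AP-1, and the core promoter element TATAAA. The 3 promoters with at least 1 match are shown, 5′ to 3′ along the gene's strand, with matches in capitals.
Cx3cr1, chr9:120068297-120068546, minus strand: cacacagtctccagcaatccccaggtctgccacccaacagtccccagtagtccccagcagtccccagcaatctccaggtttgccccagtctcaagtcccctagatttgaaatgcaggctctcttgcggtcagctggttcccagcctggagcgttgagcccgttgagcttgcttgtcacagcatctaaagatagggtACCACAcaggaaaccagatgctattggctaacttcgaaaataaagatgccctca
Siglech, chr7:55767934-55768183, plus strand: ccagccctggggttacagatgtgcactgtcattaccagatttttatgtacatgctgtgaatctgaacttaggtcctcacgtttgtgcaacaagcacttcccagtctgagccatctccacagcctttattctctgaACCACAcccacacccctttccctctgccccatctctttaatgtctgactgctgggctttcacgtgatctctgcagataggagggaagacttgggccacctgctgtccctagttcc
Fcrls, chr3:87263525-87263774, minus strand: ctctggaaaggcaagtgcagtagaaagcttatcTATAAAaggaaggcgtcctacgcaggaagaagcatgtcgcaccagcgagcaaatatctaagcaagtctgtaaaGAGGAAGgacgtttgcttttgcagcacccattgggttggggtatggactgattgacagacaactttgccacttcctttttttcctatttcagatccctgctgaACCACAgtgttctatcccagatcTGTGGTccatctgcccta
The capitals in *Cx3cr1* and *Siglech* are 1 RUNX match each, on the opposite strand. *Fcrls* holds 1 TATA box, 1 PU.1 and 2 RUNX matches, and no capitals of different motifs overlap. RUNX letters were present in 3 of these 5 promoters and in 14.05% of 32841 mouse promoters of the same length, PU.1 letters in 1 of 5 and 10.6%, TATA letters in 1 of 5 and 12.4%, and AP-1 letters in 0 of 5 and 6.75%. The windows of *Olfml3* and *Sparc* held none of the 4 motifs. These matches describe letters in a window and were not tested further.

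CD11b+ libraries held 16.2 to 25.1 M and cortex libraries 25.2 to 43.1 M gene counts, and each of the 9 genes had at least 485 counts in every library. Mouse number 236 is given both to a CD11b+ library labelled A-/Pwt/wt and to a cortex library labelled A+/Pwt/wt, and these labels were used as given. In CD11b+ microglia, A-/Pwt/wt females carry another tag in their column names (b3, which the labels do not explain) than both APP/PS1 groups (b2), so that the transgene and the tag cannot be told apart. All males carry b1, and cortex labels carry no tag. The CD11b+ libraries held RNA of other brain cells in unequal amounts. The summed level of 20 neuron markers was 556 to 5995 CPM (gene counts scaled to library size, after TMM) in A-/Pwt/wt, 1222 to 2222 in A+/Pwt/wt, 257 to 2909 in A+/Pki/ki, 371 to 468 in WT and 1034 to 2142 in KI libraries. The share of counts from the mitochondrial genome ranged from 3.45% to 24.5%. A-/Pwt/wt mouse 223 had the highest neuron level (5995 CPM) and mitochondrial share (24.5%), and the next highest neuron levels were those of A+/Pki/ki mouse 335 (2909 CPM) and A-/Pwt/wt mouse 236 (2730.0 CPM). The summed level was 7278 to 20430.0 CPM for 12 microglial reference genes (genes of microglia and other myeloid cells, such as *Aif1* and *Itgam*, outside the homeostatic and DAM lists, also used as an alternative scaling) and at most 26.5 CPM for 12 lymphocyte markers. That of 11 monocyte and neutrophil markers was 60.1 to 1886 CPM in A+/Pki/ki libraries, both the lowest (mouse 394) and the highest value (mouse 335) of the CD11b+ libraries. CPM in bulk RNA cannot tell fewer cells of a type from less RNA per cell.

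In CD11b+ microglia, *Csf1r* and *Sparc* were the most abundant of the 9 genes per kilobase of exon and *Olfml3* the least abundant in each of the 5 groups. In A-/Pwt/wt females, the mean level per length was 901 CPM per kb for *Csf1r*, 799.7 for *Sparc*, 594 for *Cx3cr1*, 555 for *Fcrls*, 488 for *Tmem119*, 365 for *Selplg*, 285 for *Gpr34*, 223 for *Siglech* and 156 for *Olfml3* (n = 7). Every neighbour in this order overlapped the next across mice, in the other female groups as well. In WT males, whose libraries were more alike, 6 of the 8 neighbouring pairs were apart, and *Tmem119* (767 CPM per kb) stood above *Selplg* (592) and *Fcrls* (588), which overlapped each other. *Fcrls* stood below *Cx3cr1* in A-/Pwt/wt and above it in both APP/PS1 groups, with overlapping ranges each time. Levels of males and females were scaled in separate tables and are not compared by test.

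Among the receptors, *Csf1r* (ENSMUSG00000024621.16, chr18:61100598-61132149, plus strand) reached 3493 CPM in the lowest, 5334 in the median and 6444 in the highest of the 7 A-/Pwt/wt libraries. It was 3319, 4482, 5019.5 and 5450.0 CPM in A+/Pwt/wt, 3608, 5928, 6194 and 6195 in A+/Pki/ki, 7600.0, 7682 and 7914 in WT and 4435, 5164, 6239.8 and 7007 CPM in KI libraries. Mice 223, 331 and 335 had the lowest *Csf1r* level of their groups. *Cx3cr1* ranged from 1836 to 3274 CPM in A-/Pwt/wt (median 2783), and it was 1751, 2376, 2623 and 3137 CPM in A+/Pwt/wt and 2064, 3284, 3306 and 3617 CPM in A+/Pki/ki libraries. In males, *Cx3cr1* was 4131, 4132 and 4152 CPM in WT, a CV of 0.282%, and 2302, 2398, 3045 and 3831 CPM in KI libraries. The lowest *Cx3cr1* value of each female group was again that of mouse 223, 331 or 335. *Gpr34* averaged 596 ± 97.0 CPM in A-/Pwt/wt (mean ± SD, n = 7), 690.3 ± 185 in A+/Pwt/wt (n = 4), 783 ± 171 in A+/Pki/ki (n = 4), 623 ± 14.1 in WT (n = 3) and 496 ± 130.4 CPM in KI mice (n = 4), and its ranges overlapped between the female groups.

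Among the surface proteins, *Tmem119* was 759, 1195 and 1394 CPM in the lowest, median and highest A-/Pwt/wt library. It was 664, 730.4, 823 and 825 CPM in A+/Pwt/wt and 711, 905, 989 and 1090.0 CPM in A+/Pki/ki libraries. The 4 A+/Pwt/wt values lay below those of 6 of the 7 A-/Pwt/wt libraries, and mouse 223 with 759 CPM was the exception. In males, *Tmem119* was 1752, 1768 and 1805 CPM in WT and 1117, 1168, 1350.5 and 2043 CPM in KI libraries, so that the highest KI library, mouse 104, exceeded every WT library. *Selplg* averaged 1558 ± 292 CPM in A-/Pwt/wt, 1285 ± 159.6 in A+/Pwt/wt, 1540.4 ± 284 in A+/Pki/ki, 2530.2 ± 111 in WT and 1923 ± 577 CPM in KI mice. *Siglech* averaged 754 ± 129.9, 734 ± 168, 896 ± 221, 1089.7 ± 75.5 and 757 ± 179 CPM in the same order of groups. *Fcrls* averaged 1707 ± 391 CPM in A+/Pki/ki and 1295 ± 296 CPM in A-/Pwt/wt females, and its values in A+/Pki/ki were 1277, 1474, 2032 and 2044 CPM. Of these, 1 lay below and 2 lay above the range of the A-/Pwt/wt libraries without mouse 223 (1302 to 1604 CPM).

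Of the secreted proteins, *Sparc* varied least between mice of the female groups. Its CV was 11.7% in A-/Pwt/wt and 9.23% in A+/Pwt/wt females, compared with 26.8% for *Gpr34* in A+/Pwt/wt and 39.3% for *Olfml3* in KI mice. *Sparc* averaged 3029 ± 353, 3220.1 ± 297 and 3424 ± 413 CPM in A-/Pwt/wt, A+/Pwt/wt and A+/Pki/ki females and 4327 ± 152 and 3962 ± 409 CPM in WT and KI males. *Olfml3* averaged 964 ± 225, 986 ± 153, 1127 ± 162, 1277 ± 60.1 and 975 ± 383 CPM in these groups.

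**Figure D1:**
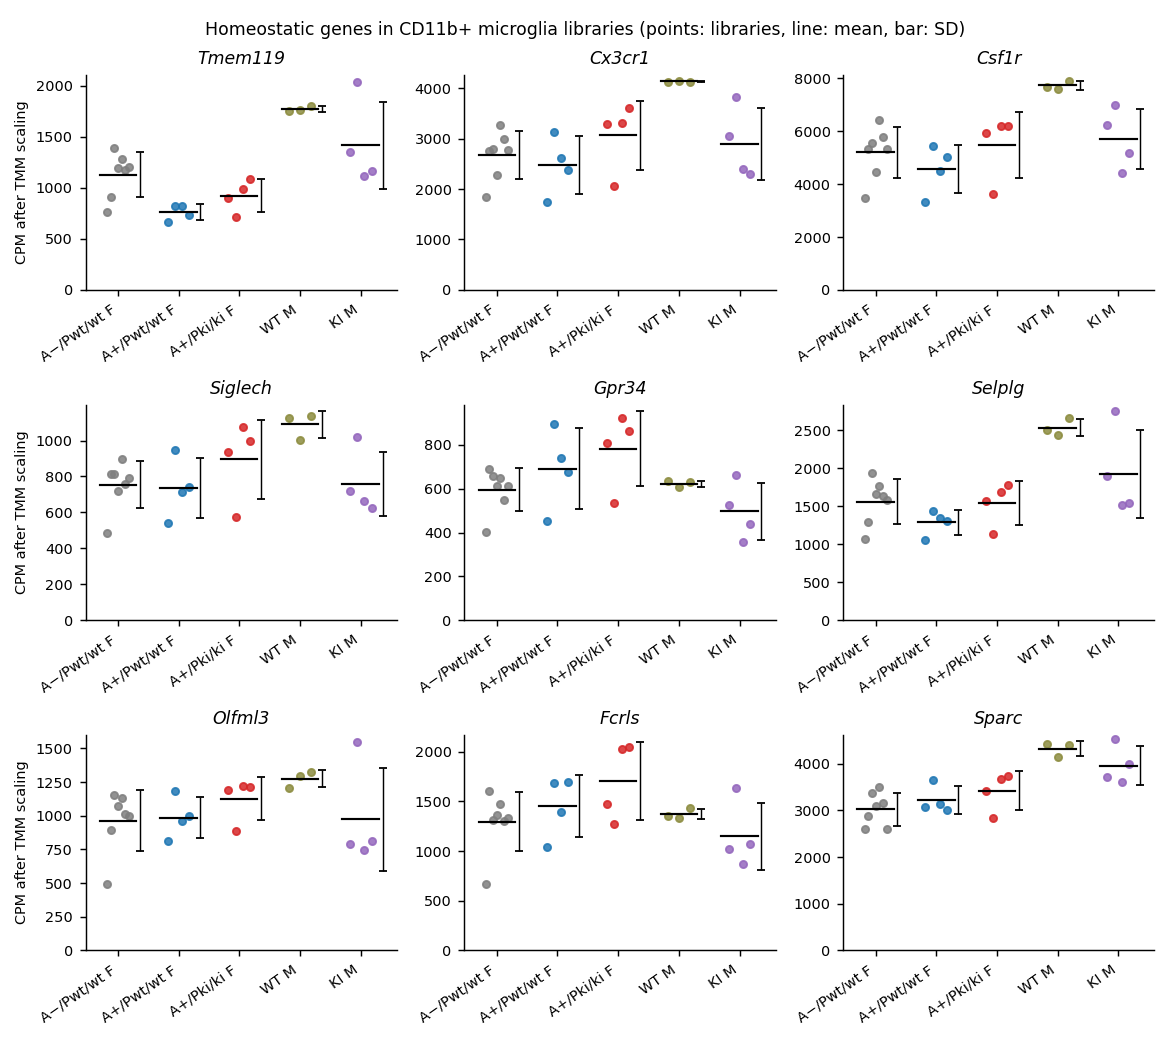
Level of each homeostatic gene (y axis, CPM after TMM scaling) in the CD11b+ libraries of A-/Pwt/wt (n = 7), A+/Pwt/wt (n = 4) and A+/Pki/ki (n = 4) females and WT (n = 3) and KI (n = 4) males. Points are libraries, lines means and bars the SD, and females and males were scaled in separate tables. *Tmem119* was 664 to 825 CPM in A+/Pwt/wt and 759 to 1394 CPM in A-/Pwt/wt libraries, and 1 KI library, mouse 104, lay near or above the WT libraries.

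The comparison of A+/Pwt/wt with A-/Pwt/wt females describes microglia with and without the APP/PS1 transgene at wild-type *Plcg2*. None of the 9 genes was called at FDR 0.05 by edgeR's quasi-likelihood test, in which 1.01% of 17355 genes tested were called higher and 0.282% lower. At an unadjusted p under 0.05 there was 1 of 9, beside 10.1% of all genes tested. DESeq2's Wald test called 1 and limma 0 of 9, beside 636 and 254 over all genes. The gene was *Tmem119* in both cases, with a level 0.68-fold that of A-/Pwt/wt mice (log2FC −0.56, SE 0.18, adjusted p 0.217, 95% interval −0.95 to −0.16). DESeq2 called it lower (−0.55, adjusted p 0.0264), as did edgeR without A-/Pwt/wt mouse 223 (−0.65, adjusted p 0.0307). Its neighbour *Selplg* was next with a log2FC of −0.26 (SE 0.18, adjusted p 0.749). Of the receptors, *Csf1r* had a log2FC of −0.17, *Cx3cr1* of −0.10 and *Gpr34* of 0.23 (interval −0.20 to 0.65). *Siglech* (−0.02), *Olfml3* (0.05), *Sparc* (0.10) and *Fcrls* (0.18) completed the list, each with an interval that included 0. The median of the 9 genes was a log2FC of −0.02, beside −0.03 over all genes tested.

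Other genes of the homeostatic program were mostly not called in the same comparison either. Of 30 other homeostatic genes, 1 was called lower and 29 were not called (median log2FC −0.12). The called gene was *Crybb1*, a crystallin that marks microglia, which averaged 101 CPM in A+/Pwt/wt and 217 CPM in A-/Pwt/wt mice (log2FC −1.09, SE 0.22, adjusted p 0.0329). The purinergic receptor *P2ry12* (log2FC −0.14, SE 0.19, adjusted p 0.936) was not called. Of 20 DAM genes, 13 were called higher, including *Apoe* (log2FC 1.14, SE 0.19, adjusted p 0.0111) and the cystatin *Cst7* (log2FC 5.02, SE 0.30, adjusted p 2.8e-06), whereas *Trem2* was not (log2FC 0.66, SE 0.21, adjusted p 0.202). The study had itself named *Apoe* and *Trem2* in these samples, and the DAM list was chosen with these results known, so that it is not independent evidence of its direction. Of the ligands and partners of the 9 genes, *Csf1*, a ligand of CSF1R, rose from 53.9 to 268 CPM (log2FC 2.33, SE 0.20, adjusted p 8.1e-05). Beside these values, 10 of 20 neuron markers had a negative log2FC (median 0.00), 8 of 9 border macrophage markers had one (median −1.01, 3 called lower), and all 10 immediate early genes had one (median −0.80, 0 called). The part of these cells and of isolation in the values of *Tmem119* and *Crybb1* was not tested.

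A+/Pki/ki and A-/Pwt/wt females differ in the transgene and in *Plcg2*, and this comparison shares its A-/Pwt/wt libraries with the preceding one. Again 0 of the 9 genes were called by edgeR (0 at an unadjusted p under 0.05, 0 by DESeq2 and 0 by limma), whereas 1.35% of 17446 genes tested were called higher and 0.287% lower. *Tmem119* had a log2FC of −0.29 (SE 0.19, adjusted p 0.495), and *Selplg* of −0.02. The other 7 genes had positive values (3 of 9 with libraries scaled to the microglial reference genes), from 0.08 for *Csf1r* to 0.39 for *Gpr34* (interval −0.01 to 0.80) and 0.40 for *Fcrls* (interval −0.10 to 0.90). Their median was 0.20, and that of all genes −0.01. Without the library with the most neuron marker RNA in each group (mice 223 and 335, an alternative chosen after seeing the data), *Gpr34* was called higher (0.46, adjusted p 0.0373). Of the 30 other homeostatic genes, 24 had a positive value and 0 were called, while 15 of 20 DAM genes were called higher. *Csf1* (log2FC 3.01, SE 0.30, adjusted p 0.00043) and *Tyrobp*, the adaptor of Siglec-H (log2FC 1.03, SE 0.22, adjusted p 0.0396), rose among the partners. All 20 neuron markers had a negative log2FC here (median −0.87, 0 called).

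The comparison of A+/Pki/ki with A+/Pwt/wt females addresses the effect of the P522R variant on microglia of APP/PS1 mice, within 1 tag. All 9 genes had a positive log2FC (5 of 9 with libraries scaled to the reference genes), with a median of 0.20 beside 0.00 over all genes, and 0 were called. The test called 0% of 17039 genes higher and 0% lower (575 at an unadjusted p under 0.05, 7 by DESeq2 and 0 by limma), and 0 of the 9 genes had an unadjusted p under 0.05 or were called by DESeq2 or limma. The values ran from 0.03 for *Sparc* (interval −0.34 to 0.39) and 0.12 for *Gpr34* (interval −0.41 to 0.65) through 0.22 for *Tmem119* (interval −0.13 to 0.56) to 0.25 for *Cx3cr1* (interval −0.28 to 0.79). Adjusted p ranged from 0.853 to 0.96. All 30 other homeostatic genes (median 0.26) and all 12 microglial reference genes (median 0.21) also had positive values, and 0 of either list was called. At the same time, all 20 neuron (median −0.84), 15 astrocyte (−0.69) and 13 oligodendrocyte markers (−0.34) had negative values, 0 of them called, whereas 11 monocyte and neutrophil markers (median 2.06) and 10 immediate early genes (0.87) had positive ones, also with 0 called. The mitochondrial share was 9 to 16.7% in A+/Pwt/wt and 3.45 to 19.4% in A+/Pki/ki libraries, and the part of these values in the result was not tested. With the reference scaling, the median of the 9 genes became 0.00 and that of all genes −0.18.

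**Figure D2:**
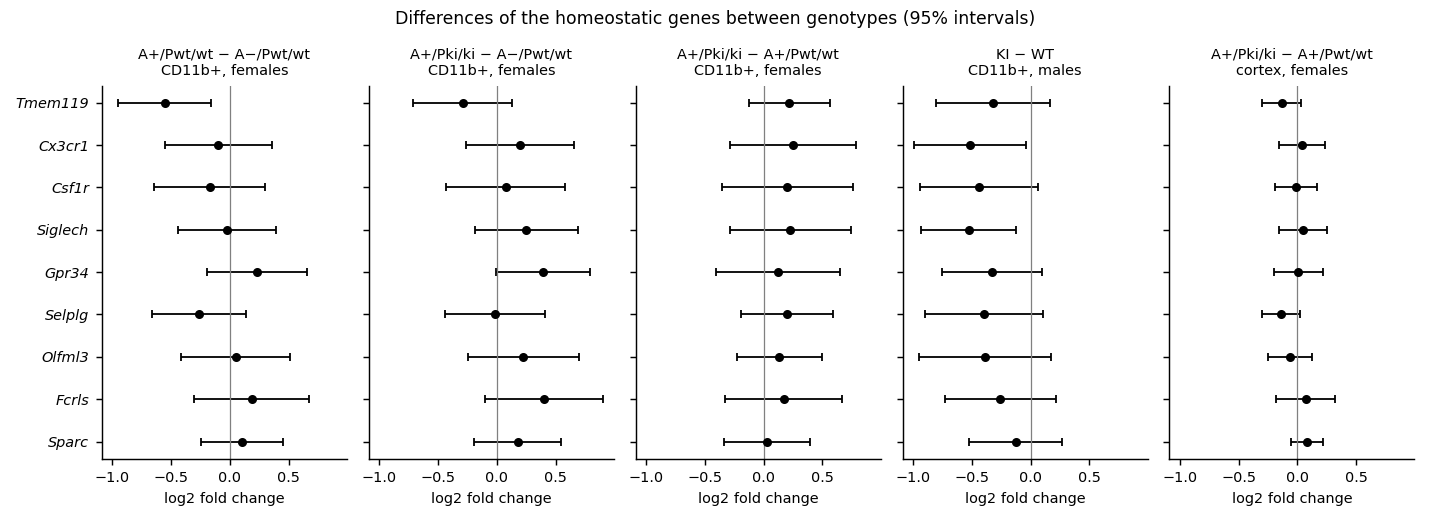
Differences (x axis, log2 fold change with 95% interval) of the 9 homeostatic genes in 5 comparisons by edgeR's quasi-likelihood test. Of the 45 intervals, 3 exclude 0, those of *Tmem119* in A+/Pwt/wt against A-/Pwt/wt females (−0.95 to −0.16) and of *Cx3cr1* (−0.99 to −0.04) and *Siglech* (−0.93 to −0.12) in KI against WT males, and cortical intervals are the narrowest.

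KI and WT males ask the same question without amyloid. All 9 genes had a negative log2FC (8 of 9 with the reference scaling, median −0.39, all genes 0.00), and 0 were called by edgeR, whereas 11.1% of 16373 genes tested were called higher and 5.26% lower. At an unadjusted p under 0.05 there were 2 of 9, beside 33.3% of all genes tested. DESeq2 called 3 of 9 and limma 0, beside 3719 and 2516 over all genes. *Siglech* had a log2FC of −0.53 (SE 0.18, adjusted p 0.0759), with 1003, 1128 and 1139 CPM in WT and 626, 663, 718 and 1019 CPM in KI libraries. *Cx3cr1* (log2FC −0.52, SE 0.21, adjusted p 0.126) and *Csf1r* (log2FC −0.44, SE 0.22, adjusted p 0.205) were lower in every KI than in any WT library. Such a separation was seen for 2 of the 9 genes and for 15.4% of all genes tested. *Selplg* (−0.40), *Olfml3* (−0.39), *Gpr34* (−0.33), *Tmem119* (−0.32), *Fcrls* (−0.26) and *Sparc* (−0.13) had adjusted p between 0.25 and 0.649.

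The 4 KI libraries were not alike. In mouse 104, *Tmem119* (2043 CPM), *Selplg* (2748), *Olfml3* (1548), *Fcrls* (1636), *Gpr34* (662) and *Sparc* (4523) were above every WT library, while *Cx3cr1* (3831) and *Csf1r* (7007) were below and *Siglech* (1019) within the WT range. In mice 84, 136 and 139, each of the 9 genes was below all 3 WT libraries. The share of all genes with this pattern was not counted, and these mice were set apart after seeing the data. Without mouse 104, 8 of the 9 genes were called lower, all but *Sparc*, with *Cx3cr1* at −0.68, adjusted p 0.00776, *Olfml3* at −0.70, adjusted p 0.00174 and *Tmem119* at −0.55, adjusted p 0.0066. Over all genes, 2153 were then called lower instead of 861. Without WT mouse 101 and KI mouse 139, the libraries with the most neuron marker RNA in their groups, 0 of 9 were called and *Siglech* was at −0.50, adjusted p 0.302. Calls over all genes were then 270 higher and 11 lower, instead of 1824 and 861.

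Of 30 other homeostatic genes in KI against WT microglia, 10 were called lower and 20 were not called, beside 5.26% of all genes called lower, and 30 of 30 had a negative log2FC (median −0.43). The largest falls of this list were those of *Cd33*, an inhibitory Siglec receptor (log2FC −0.71, SE 0.13, adjusted p 0.00882), the transcriptional regulator *Sall3* (log2FC −0.64, SE 0.13, adjusted p 0.0126) and the phagocytic receptor *Mertk* (log2FC −0.59, SE 0.13, adjusted p 0.0159). *P2ry12* (log2FC −0.41, SE 0.18, adjusted p 0.155) was not called. All 12 microglial reference genes had negative values too (median −0.25, 1 called lower). Conversely, 19 of 20 neuron markers (median 2.04), 15 of 15 astrocyte (1.18) and 8 of 13 oligodendrocyte markers (1.09) were called higher, beside 11.1% of all genes called higher, and *Cx3cl1*, the neuronal ligand of CX3CR1, rose (log2FC 0.94, SE 0.25, adjusted p 0.0336), as did *Sparcl1*, the astrocytic relative of *Sparc* (log2FC 1.15, SE 0.24, adjusted p 0.0126). *Csf1* fell (log2FC −0.67, SE 0.17, adjusted p 0.0293). Scaled to the 12 reference genes, 8 of the 9 homeostatic genes remained negative with a median of −0.14, and *Sparc* was at 0.18, while the median of all genes became 0.32 and the split over all genes 1324 higher and 3 lower, beside 1824 and 861 with TMM and 1582 and 1589 with library totals. Of 14 endothelial and mural markers, 6 were called higher (median 0.80), and of 10 immediate early genes, 2 were called lower and 9 had a negative value (median −0.53). The mitochondrial share of counts was 3.97 to 5.02% in WT and 7.41 to 12.8% in KI libraries, with no overlap. The part of RNA of other cells and of RNA quality in these values was not tested.

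Whether the effect of the knock-in differed between the male and the APP/PS1 female microglia was tested as the difference of both effects, which also differ in sex, transgene and tag, so that these cannot be told apart. All 9 values were negative (7 of 9 with the reference scaling, median −0.51, all genes 0.01), from −0.13 for *Sparc* to −0.72 for *Siglech* (SE 0.31, adjusted p 0.169) and −0.73 for *Cx3cr1* (SE 0.33, adjusted p 0.18). None was called, in a test by edgeR that called 0% of 17619 genes higher and 0% lower (4664 at an unadjusted p under 0.05, 1185 by DESeq2). Of the 9 genes, 2 had an unadjusted p under 0.05, and DESeq2 called 0. Without A+/Pki/ki mouse 335, 4 were called, namely *Siglech*, *Cx3cr1*, *Csf1r* and *Selplg*, with *Cx3cr1* at −0.96, adjusted p 0.025, among 2724 genes called lower over all genes.

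Within each female group, the library with the lowest summed level of the 9 genes was also the one with the most RNA of neurons and oligodendrocytes. In A-/Pwt/wt females, the sum was 11810.0 CPM in mouse 223, with 74440.0 CPM of 13 oligodendrocyte markers, and 20400.0 CPM in mouse 242, with 21710.0 CPM. In A+/Pwt/wt females, it was 12710.0 CPM in mouse 331 (50960.0 CPM of oligodendrocyte markers) and 19220.0 CPM in mouse 367 (22000.0 CPM). In A+/Pki/ki females, mice 394 and 405 had the lowest neuron levels of the female libraries (412 and 257 CPM) and sums of 21110.0 and 21540.0 CPM, whereas mouse 335 had 2909 and 13630.0 CPM. Among KI males, mouse 104 stood apart, with a sum of 25020.0 CPM, as high as in WT males (24340.0 to 25430.0 CPM), at 38950.0 CPM of oligodendrocyte and 1221 CPM of neuron markers. These are libraries of unlike groups and tables, and no p is given.

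**Figure D3:**
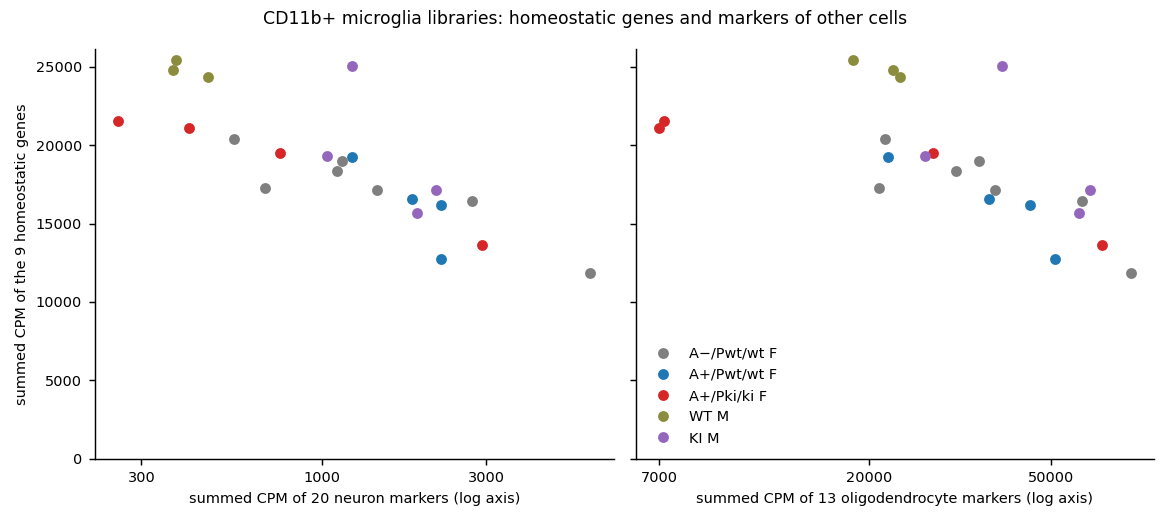
Summed level of the 9 homeostatic genes (y axis, CPM) against the summed level of 20 neuron (left) and 13 oligodendrocyte markers (right, x axes in CPM on a log scale) in 22 CD11b+ libraries, coloured by group. The sum runs from 11810.0 CPM in A-/Pwt/wt mouse 223, at the highest marker levels, to 25430.0 CPM in WT mouse 102, and KI mouse 104 (25020.0 CPM) lies above the other KI mice.

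The counts of each gene were also expressed as a percentage of the summed counts of the 12 microglial reference genes, which removes differences in the amount of microglial RNA as far as these genes represent it. On this scale *Tmem119* was 7.18 to 10.4% in A-/Pwt/wt, 5.03 to 7.27% in A+/Pwt/wt and 5.81 to 6.41% in A+/Pki/ki females. All 4 A+/Pki/ki libraries lay below all 7 A-/Pwt/wt libraries, and of the A+/Pwt/wt libraries all but mouse 375 (7.27%) did. *Tmem119* was the only one of the 9 genes with this separation of A+/Pki/ki from A-/Pwt/wt libraries, which 2.26% of all genes tested showed. The opposite separation held for 0 of the 9 genes and 1.35% of all genes. On CPM, the *Tmem119* ranges of these groups overlapped. In this comparison 11 of the 12 reference genes had a positive log2FC (median 0.175). With libraries scaled to them, 22.5% of all genes were positive, beside 48.4% with TMM. Fitted with this scaling, *Tmem119* had a log2FC of −0.55, adjusted p 0.289, in A+/Pwt/wt and of −0.53, adjusted p 0.164, in A+/Pki/ki against A-/Pwt/wt mice, and was not called. *Selplg* was 10.2 to 14.6% in A-/Pwt/wt, 8.74 to 11.8% in A+/Pwt/wt and 9.28 to 10.5% in A+/Pki/ki females.

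By the same measure, *Olfml3* was nearly level, with 6.77 to 7.93%, 7.16 to 8.46% and 7.12 to 7.95% in A-/Pwt/wt, A+/Pwt/wt and A+/Pki/ki females. In males, *Tmem119* was 10.1 to 10.5% in WT and 9.54 to 10.2% in KI libraries, with *Fcrls* at 7.75 to 8.35% and 7.21 to 8.75%. *Cx3cr1* (23.8 to 24.2% in WT and 18.8 to 21.9% in KI), *Csf1r* (44.3 to 46.2% and 34.3 to 44.1%) and *Selplg* (14.2 to 15.5% and 12.6 to 13.8%) were lower in every KI than in any WT library. This separation held for 3 of the 9 genes and for 1.25% of all genes tested. The opposite separation, KI above WT, held for 0 of the 9 genes and for 17.2% of all genes. With libraries scaled to the reference genes, 81.1% of all genes had a positive log2FC, beside 49.8% with TMM. The share of 1.25% therefore carries the shift of this scaling, and no homeostatic gene was called with it. No test was made between female and male percentages, whose libraries carry different tags.

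**Figure D4:**
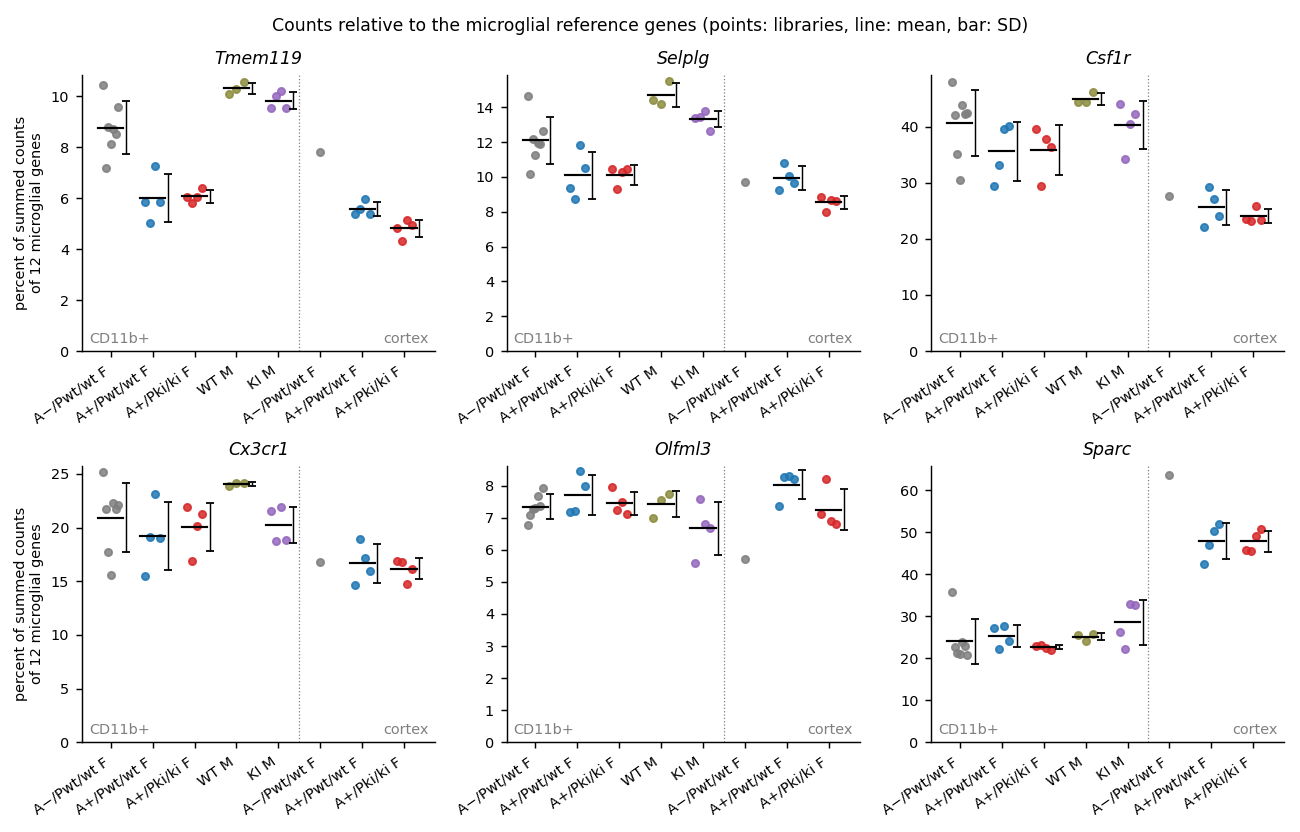
Counts of 6 homeostatic genes as a percentage of the summed counts of 12 microglial reference genes (y axis) in every CD11b+ (left of the dotted line) and cortex library (right), with the mean as a line and the SD as a bar. *Tmem119* was 7.18 to 10.4% in A-/Pwt/wt and 5.81 to 6.41% in A+/Pki/ki CD11b+ libraries, and *Sparc* was 42.4 to 52.0% in A+/Pwt/wt cortex against 22.3 to 27.7% in A+/Pwt/wt CD11b+ microglia.

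In temporo-occipital cortex, the effect of P522R in APP/PS1 mice was examined in whole tissue. *Sparc* was the most abundant of the 9 genes per length, with 84.5 CPM per kb in A+/Pwt/wt and 89.5 in A+/Pki/ki mice, and the other 8 genes lay between 8.6 (*Siglech*) and 30.1 CPM per kb (*Fcrls*) in A+/Pwt/wt mice. None of the 9 genes was called by edgeR, DESeq2 or limma, and none had an unadjusted p under 0.05. The test called 0% of 18640 genes higher and 0% lower (514 at an unadjusted p under 0.05, 11 by DESeq2 and 0 by limma). *Selplg* had the lowest log2FC, with 59.4, 63.9, 69.2 and 74.3 CPM in A+/Pwt/wt and 58.7, 59.7, 61.6 and 61.8 CPM in A+/Pki/ki mice (log2FC −0.14, SE 0.07, adjusted p 0.9997, interval −0.30 to 0.02). *Tmem119* followed, with 33.0, 38.0, 38.4 and 40.3 CPM and 32.3, 33.8, 34.8 and 35.5 CPM (log2FC −0.13, SE 0.08, adjusted p 0.9997, interval −0.30 to 0.03). Both ranges overlapped between the groups.

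As a percentage of the reference genes, *Tmem119* was 4.33 to 5.14% in A+/Pki/ki and 5.36 to 5.98% in A+/Pwt/wt cortex, and *Selplg* 8.01 to 8.84% and 9.22 to 10.8%. A+/Pki/ki thus lay below A+/Pwt/wt in every library for 2 of the 9 genes and for 1.68% of all genes tested. The opposite separation held for 0 of the 9 genes and 0.3% of all genes. With libraries scaled to the reference genes, 22.3% of all genes had a positive log2FC (median −0.085), beside 49.3% with TMM. Of the 9 genes, 0 were positive with this scaling and 5 with TMM. *Cx3cr1* averaged 112 ± 13.1 and 115 ± 10.6 CPM in A+/Pwt/wt and A+/Pki/ki cortex (n = 4 and 4), *Csf1r* 172 ± 21.6 and 170.0 ± 4.78, *Gpr34* 30.7 ± 2.85 and 30.9 ± 3.5, and *Siglech* 29.1 ± 2.66 and 30.0 ± 3.07 CPM. *Fcrls* averaged 70.2 ± 9.59 and 73.6 ± 12.7, *Olfml3* 53.7 ± 2.71 and 51.5 ± 6.52, and *Sparc* 320.0 ± 1.53 and 339 ± 17.9 CPM. With TMM, all log2FC values were between −0.14 and 0.08, and no interval reached beyond −0.30 or 0.32. The median of the 9 genes was 0.01, that of the 30 other homeostatic genes −0.01, and that of all genes 0.00. *P2ry12* (log2FC −0.19, SE 0.12, adjusted p 0.9997), *Apoe* (−0.01), *Trem2* (0.03) and *Cst7* (−0.14) were not called either.

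A single A-/Pwt/wt cortex library was available, so that differences from it have no replicate check and no test. Each of the 9 genes was lower in it than in any of the 8 APP/PS1 cortex libraries. How many of all genes had this pattern was not counted, so that it cannot be read as particular to the 9 genes. *Gpr34* was 11.6 CPM (485 counts, exact 95% interval 10.6 to 12.6) in it and 27.1 to 35.1 CPM in the APP/PS1 mice, *Siglech* 13.0 CPM (545 counts, exact 95% interval 11.9 to 14.1) and 25.6 to 32.1 CPM, and *Csf1r* 99.2 CPM (4158 counts, exact 95% interval 96.2 to 102) and 148 to 200.2 CPM. These intervals cover counting error only. The APP/PS1 median was 2.58 times the A-/Pwt/wt value for *Gpr34*, 2.52 for *Fcrls*, 2.51 for *Olfml3*, 2.36 for *Siglech*, 1.86 for *Cx3cr1*, 1.77 for *Selplg* and 1.71 for *Csf1r*. It was 1.41 times for *Sparc* and 1.25 times for *Tmem119*, beside 1.93 times for the sum of the 12 reference genes. As a percentage of these genes, *Tmem119* was 7.81% in the A-/Pwt/wt library and 4.33% to 5.98% in the APP/PS1 libraries, while *Gpr34* was 3.21% and 3.85% to 5.06%, and *Olfml3* 5.72% and 6.8% to 8.29%. *Tmem119* and *Sparc* were thus above the APP/PS1 range on this scale, *Gpr34*, *Olfml3* and *Fcrls* below it, and the other 4 genes within it.

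**Figure D5:**
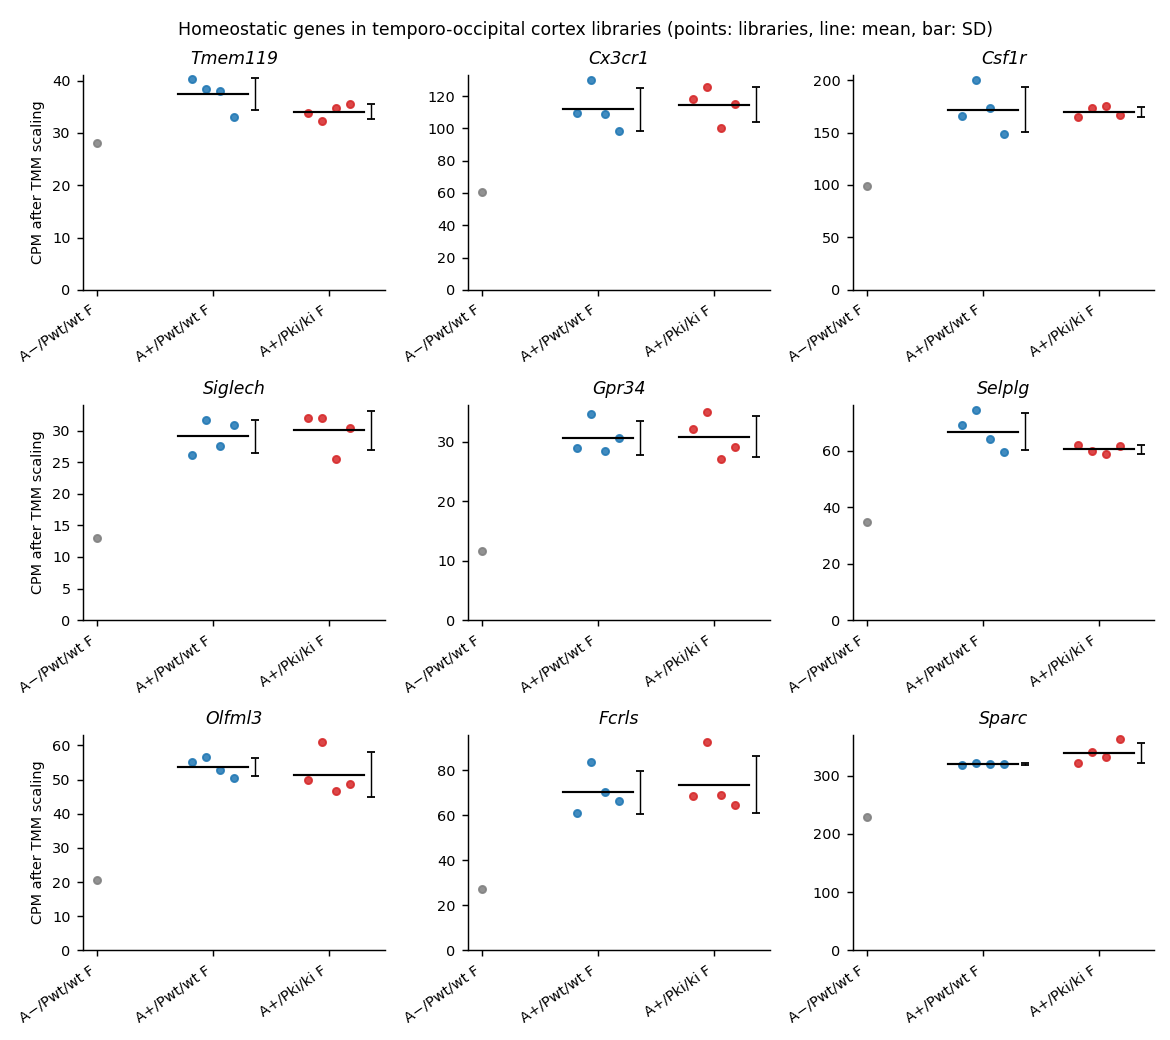
Level of each homeostatic gene (y axis, CPM after TMM scaling) in temporo-occipital cortex libraries of A-/Pwt/wt (n = 1), A+/Pwt/wt (n = 4) and A+/Pki/ki (n = 4) females. Points are libraries, lines means and bars the SD, and the A-/Pwt/wt point is the lowest for all 9 genes, closest to the others for *Tmem119* (28.1 CPM against 32.3 to 40.3 CPM). This pattern was not counted over all genes.

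CD11b+ microglia and cortex of the same genotype were compared to show how far these genes mark the isolated cells. In A+/Pwt/wt females, all 9 genes were called higher in CD11b+ microglia, with non-overlapping ranges, whereas 37.7% of 18541 genes tested were called higher and 40.2% lower and 34.8% had non-overlapping higher ranges. The largest ratios were 33.7-fold for *Csf1r* (log2FC 5.07, SE 0.20) and 31.9-fold for *Siglech* (log2FC 5.00, SE 0.19), and *Gpr34* (28.5-fold), *Cx3cr1* (28.0), *Fcrls* (26.3), *Tmem119* (25.8), *Selplg* (24.4) and *Olfml3* (23.3) followed. *Sparc* had the smallest, 12.8-fold (log2FC 3.67, SE 0.13, interval 3.39 to 3.95), and its interval did not reach that of any other of the 9 genes. The largest adjusted p of the 9 was 8.8e-09. In A+/Pki/ki females, all 9 were again called higher, from 12.3-fold for *Sparc* (log2FC 3.62, interval 3.27 to 3.96) to 39.1-fold for *Csf1r* (log2FC 5.29, SE 0.23), with an adjusted p of at most 7.6e-07. Here, 36.8% of 18954 genes tested were called higher and 39.8% lower, and 33.7% had non-overlapping higher ranges.

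Relative to the reference genes, most of the 9 genes were no longer called higher. With libraries scaled to these genes, 2 of the 9 genes (*Csf1r* and *Siglech*) were called higher and 1 lower in CD11b+ microglia of A+/Pwt/wt mice, and 4 (with *Tmem119* and *Selplg*) and 1 in A+/Pki/ki mice. *Olfml3* was at −0.06, adjusted p 0.707, in A+/Pwt/wt mice. *Sparc* was the gene called lower. It made up 42.4 to 52.0% of the reference counts in A+/Pwt/wt cortex and 22.3 to 27.7% in A+/Pwt/wt CD11b+ microglia, and its log2FC with this scaling was negative (−0.92, adjusted p 0.00031, and −1.08, adjusted p 4.8e-05, in A+/Pki/ki mice). *Csf1r*, in contrast, made up 22.1 to 29.2% in cortex and 29.3 to 40.2% in CD11b+ microglia. Beside these values, all 12 reference genes and 29 of 30 other homeostatic genes were called higher in CD11b+ microglia of A+/Pwt/wt mice, among them *Cd33* (log2FC 5.18, SE 0.25). The transcription factor *Mef2c*, which neurons also express, was called lower (log2FC −0.60, SE 0.20, adjusted p 0.0184). In A+/Pki/ki mice, 29 of 30 were called higher, among them *Cd33* (5.65) and *P2ry12* (5.21). In A+/Pwt/wt mice, all 20 neuron and 15 astrocyte markers were called lower, and all 14 endothelial and mural markers were called higher (median log2FC 2.88). Of 13 oligodendrocyte markers, 3 were called higher and 8 lower (median log2FC −1.5, largest 4.35). The summed level of these 13 markers was 22000.0 to 50960.0 CPM in A+/Pwt/wt CD11b+ libraries and 4162 to 6875 CPM in A+/Pwt/wt cortex. Of the ligands of the receptors, *Il34* and *Cx3cl1* were called lower in CD11b+ microglia, with *Il34* at 63.2 CPM in cortex and 7.38 CPM in CD11b+ microglia (log2FC −2.75, SE 0.17, adjusted p 1e-07) and *Cx3cl1* at 839 and 37.9 CPM (log2FC −4.12, SE 0.23, adjusted p 4.4e-08). *Csf1*, the other ligand of CSF1R, was called higher there, with 32.6 CPM in cortex and 268 CPM in CD11b+ microglia (log2FC 3.38, SE 0.23, adjusted p 1.6e-07). *Selp*, which encodes P-selectin, a partner of PSGL-1, had a mean under 1 CPM in every group and was not tested. CPM values of the tissues were scaled separately, and the log2FC jointly. Tissue, RNA extraction kit and table coincide and cannot be told apart.

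The genes whose pattern over the libraries was most like that of the 9 genes were found by Pearson's r between log2 CPM and the mean z score of the 9 genes, as a description without p, since points share library purity and depth. Each of the 9 genes is itself part of this mean, which raises its r, so that it is not comparable with that of other genes. Over the 15 female CD11b+ libraries, these were *Vav1* (r = 0.986), *Grb2* (0.981), *Cpsf3* (0.98), *Btk* (0.978) and *Vsir* (0.972) among 7156 genes whose mean reached 20 CPM. Of the 9 genes themselves, *Siglech* (0.973), *Cx3cr1* (0.949) and *Csf1r* (0.938) followed the common pattern most closely and *Sparc* (0.788) and *Tmem119* (0.641) least. Over the 8 APP/PS1 cortex libraries and 8002 genes, *Plxdc2* (r = 0.942), *Tyrobp* (0.941), *Lyz2* (0.934), *Nfia* (0.933) and *Trem2* (0.917) were nearest. There, *Cx3cr1* (0.951) was closest to the common pattern among the 9 genes, and *Tmem119* (0.181) and *Sparc* (0.097) had the lowest r, as in CD11b+ microglia with the order of both exchanged.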

How the data were processed

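RNA was enriched with oligo(dT) beads and sequenced as paired-end reads of 150 bases. According to the study's methods and the submitters' processing notes, the authors checked reads with FastQC 0.11.7, trimmed them with Trimmomatic 0.39, aligned them to GRCm38 with STAR 2.7.9a and counted primary alignments of uniquely mapped reads with featureCounts 2.12.0, irrespective of strand. The deposited tables hold raw counts per gene, 1 table each for CD11b+ microglia of females, of males, and for cortex. The authors also deposited variance-stabilised values on a log2 scale from DESeq2, used here only in limma.

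Counts were tested with edgeR 4.0.16 (R 4.3.3; TMM scaling, quasi-likelihood test, two-sided) on genes that reached 10 counts in 3 or more fitted libraries, with Benjamini-Hochberg adjustment over all genes tested and a threshold of 0.05. Fits held only the groups compared. The standard error is the absolute log2FC divided by the square root of F. CPM were computed with TMM factors per table, and CPM per kb with exon lengths of Gencode M21. The script was tested on simulated data. DESeq2 1.42.0, limma 3.58.1, other scalings and filters and fits without each library were alternatives. Libraries with most neuron marker RNA were left out as an alternative chosen after seeing the data. Depth was 16.2 to 43.1 M counts per library, and intervals on counts cover counting error only.

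Named are the 9 genes, up to 3 called rises and falls each of 30 other homeostatic genes and of 7 ligands and partners, *P2ry12*, *Apoe*, *Trem2*, *Cst7*, and the 5 nearest genes by pattern with a mean of at least 20 CPM. Some genes that this rule names are not reported here. The genes and lists were chosen with earlier results of these data known. Replicates are libraries labelled with different mice.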

Additional observations from a re-analysis of the deposited data

Results flagged for a closer look

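In groups of 4 to 10 libraries, 54 sets of values of the 9 genes were examined for a library set apart from the others by Dixon's criterion, which chance meets in about 1 of 20 sets, and 6 sets met it. A-/Pwt/wt mouse 223 was lowest for *Olfml3*, with 492.6 CPM beside 894.7 to 1152 CPM in the other 6 libraries, and for *Fcrls*, with 670.6 CPM beside 1302 to 1604 CPM. This library had the highest neuron marker level (5995 CPM) and mitochondrial share (24.5%) of the CD11b+ libraries. A+/Pki/ki mouse 335 was lowest for *Csf1r*, with 3608 CPM beside 5928 to 6195 CPM, and for *Olfml3*, with 884.6 CPM beside 1189 to 1224 CPM. KI mouse 104 was highest for *Olfml3*, with 1548 CPM beside 744.2 to 815.3 CPM. In cortex, A+/Pki/ki mouse 203 was highest for *Fcrls*, with 92.34 CPM beside 64.52 to 68.75 CPM.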

How the results depend on the processing

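Over the alternatives, 1199 values stayed on their side of the threshold with their direction, 19 newly passed it, 9 no longer did and 42 changed sign. Of the 9 genes, DESeq2 called 1 lower in A+/Pwt/wt against A-/Pwt/wt microglia and 3 lower in KI against WT, and library totals without TMM called 1 lower in KI against WT. Leaving out 1 library gave 0 to 1 called lower in A+/Pwt/wt against A-/Pwt/wt (1 without mouse 223), 0 to 8 in KI against WT (8 without mouse 104) and 0 to 4 in the difference of both knock-in effects (4 without mouse 335). Leaving out the library with most neuron marker RNA in each group called 1 higher in A+/Pki/ki against A-/Pwt/wt, beside 798 over all genes instead of 236. Scaled to the microglial reference genes, 2 were called higher and 1 lower in CD11b+ microglia against cortex of A+/Pwt/wt mice and 4 and 1 in A+/Pki/ki mice, since this scaling shifts the median of all genes to −4.63 and −4.76 and leaves 2.77% and 3.46% of them positive instead of 48.6% and 48.0%. Over all genes, DESeq2 called 636 instead of 224 in A+/Pwt/wt and 956 instead of 286 in A+/Pki/ki against A-/Pwt/wt microglia. It called 3719 instead of 2685 in KI against WT, and 1185 instead of 0 in the difference of knock-in effects. In KI against WT, leaving out the libraries with most neuron marker RNA gave 270 higher and 11 lower over all genes instead of 1824 and 861, and leaving out any 1 library gave 98 to 2153 lower.

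Values that changed sign with the reference scaling were, in A+/Pki/ki against A-/Pwt/wt, those of *Cx3cr1* (−0.060), *Csf1r* (−0.18), *Siglech* (−0.0053) and *Sparc* (−0.087). In A+/Pki/ki against A+/Pwt/wt microglia they were *Gpr34* (−0.060), *Olfml3* (−0.048), *Fcrls* (−0.022) and *Sparc* (−0.16), and in KI against WT *Sparc* (0.18). In cortex they were *Cx3cr1* (−0.045), *Siglech* (−0.045), *Gpr34* (−0.079), *Fcrls* (−0.022) and *Sparc* (−0.0015), and in CD11b+ microglia against cortex *Olfml3* (−0.059) and *Sparc* (−0.92 and −1.08). In the difference of knock-in effects they were *Fcrls* (0.022) and *Sparc* (0.34). In A+/Pwt/wt against A-/Pwt/wt, *Olfml3* was −0.037 without TMM. Without the libraries with most neuron marker RNA, *Siglech* was 0.027 there and *Selplg* 0.026 in A+/Pki/ki against A-/Pwt/wt. The cause of these sign changes was not tested.

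Leaving out 1 library at a time, signs changed in A+/Pwt/wt against A-/Pwt/wt over −0.23 to 0.023 for *Cx3cr1*, −0.17 to 0.088 for *Siglech* and −0.077 to 0.12 for *Olfml3*, and in A+/Pki/ki against A-/Pwt/wt over −0.090 to 0.091 for *Selplg*. In A+/Pki/ki against A+/Pwt/wt microglia the ranges were −0.031 to 0.28 for *Gpr34* and −0.0074 to 0.12 for *Sparc*, and in cortex −0.018 to 0.12 for *Cx3cr1*, −0.079 to 0.066 for *Csf1r*, −0.054 to 0.072 for *Gpr34* and −0.054 to 0.16 for *Fcrls*. No paired analysis was possible because the groups compared share fewer than 2 mouse numbers. The number of mice, 3 to 7 per group in CD11b+ microglia and 4 in cortex, limits the precision of each log2FC to its printed 95% interval.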
